A study of Mus musculus with 20 samples.

Results

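The p53 protein, encoded by Trp53, and 9 genes that it is known to activate (Mdm2, Cdkn1a, Bax, Bbc3, Pmaip1, Ccng1, Phlda3, Zmat3 and Eda2r) were followed through 20 mouse nerve tumor libraries. The 10 genes were chosen by name as well-known members of the p53 pathway, and all 10 of them were found among the 24062 genes of the count table and passed the expression filter, as 10 of 16589 tested genes. The tumors were from C57BL/6J mice that received no drug. Neurofibromas (12 libraries) carried Nf1fl/fl and DhhCre, a Cre driven by the desert hedgehog promoter of the Schwann cell lineage. Paraspinal tumors (4 libraries, which the labels split evenly into a subgroup 1 and a subgroup 2) and GEM-PNST (4 libraries), a term for nerve sheath tumors arising in engineered mouse lines, carried Ink4a/Arf+/- in addition, so Nf1fl/fl and DhhCre were shared by all groups. The labels give no ages, and nothing in them ties a library to an animal of its own, so the p-values reflect sample-to-sample spread, part of which may be technical. The sample codes of neurofibroma libraries 8 and 9 share a stem, as do those of GEM-PNST library 2 and the first library of paraspinal subgroup 1, and whether such a stem marks a shared animal is not given in the sources used here; the tests treat all libraries as independent.

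p53 is a transcription factor that is kept scarce by the ubiquitin ligase Mdm2 and accumulates when Mdm2 is blocked, for example by the Arf protein of the Ink4a/Arf locus, or when p53 is modified after DNA damage. Its level and activity are set mostly at the protein, so the RNA level of Trp53 does not measure p53 activity. Its targets stop the cell cycle, start cell death through the mitochondrion, and restrain p53 itself through Mdm2. In human malignant peripheral nerve sheath tumors the p53 and INK4A/ARF pathways are among those known to be lost.

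Promoter sequence was available from RefSeq (GRCm38.p6) for 8 of the 10 genes, in 11 windows of 250 bases before to 50 after a transcript start; Pmaip1 and Zmat3 had no entry. The windows were searched on both strands for the p53 response element, a pair of adjacent 10-base motifs (20 bases in all), with the core of both motifs intact and at most 2 mismatches elsewhere. It was found in 1 of the 11 windows, the upstream one of Cdkn1a, against 0.158% of all 32851 windows in the RefSeq table. The 4-base string CATG, which is contained in that element, occurred in 4 of the 11 windows and in 61.1% of all windows. The upstream bases are shown for Cdkn1a, where the element stands in capitals, and for Bax and Mdm2, in whose windows it was not found; Bax and Mdm2 moved in opposite directions below. A match in these letters is a description and not a measured binding site, and p53 elements outside these windows were not searched.
Cdkn1a, chr17:29090729-29090978, + strand: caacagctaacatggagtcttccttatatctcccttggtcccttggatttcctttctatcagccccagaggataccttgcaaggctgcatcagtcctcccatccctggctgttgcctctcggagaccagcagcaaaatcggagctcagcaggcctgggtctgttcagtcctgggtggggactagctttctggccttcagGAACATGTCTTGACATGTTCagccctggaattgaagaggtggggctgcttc
Bax, chr7:45466899-45467148, − strand: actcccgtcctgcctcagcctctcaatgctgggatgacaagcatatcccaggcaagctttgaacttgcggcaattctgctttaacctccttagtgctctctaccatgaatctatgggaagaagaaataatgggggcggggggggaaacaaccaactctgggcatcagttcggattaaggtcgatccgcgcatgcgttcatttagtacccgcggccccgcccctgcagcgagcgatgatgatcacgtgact
Mdm2, chr10:117710759-117711008, − strand: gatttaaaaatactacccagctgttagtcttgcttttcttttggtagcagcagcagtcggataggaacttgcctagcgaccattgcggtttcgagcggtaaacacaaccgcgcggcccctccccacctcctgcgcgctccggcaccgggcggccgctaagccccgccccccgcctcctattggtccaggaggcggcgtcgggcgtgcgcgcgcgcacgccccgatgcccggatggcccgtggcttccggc
The Cdkn1a element has 1 mismatch to the consensus and lies 51 bases before the upstream transcript start and 2841 bases before the downstream one.

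The shallowest library, a neurofibroma, held 9900759 counts, and the deepest, a paraspinal tumor, 24314222. Levels are counts relative to library size (CPM), scaled by TMM, edgeR's correction for differences in RNA composition. The alignment file names of neurofibroma libraries 1 to 6 and 7 to 12 carry different prefixes, and those of all other libraries another. Libraries that share a prefix are taken here as 1 run. Run, Ink4a/Arf genotype and stage therefore cannot be told apart in a comparison with neurofibroma. The summed CPM of 10 Schwann cell lineage markers was 1881.6 to 5141.2 in neurofibroma and 5154.6 to 9603.2 in paraspinal libraries, but 3.61, 114.8, 1015.7 and 41.3 in GEM-PNST libraries 1 to 4, so the defining markers of that lineage were low in GEM-PNST. For the 10 sensory neuron markers the sum was 32.4 to 11742.4 CPM in neurofibroma (lowest in library 4, highest in library 11) and 2814.2 to 5298.8 CPM in paraspinal tumors. GEM-PNST had 6.86 to 476.9 CPM of them, with Scn10a at 0. The highest sum, in GEM-PNST library 1, was almost all Avil (474.7 CPM), and no other of these markers exceeded 16.3 CPM in GEM-PNST. The 7 macrophage markers summed to 121.4 to 1816.6, 561.9 to 2034.9 and 1594.5 to 6001.2 CPM. The 7 T and B cell markers summed to 9.93 to 259.9 CPM in neurofibroma, 2.13 to 4.85 CPM in paraspinal tumors and 2.79 to 123.5 CPM in GEM-PNST, and 5 of the 7 fell from neurofibroma to paraspinal tumors (median log2 fold change -3.97). Over all genes 28.9% fell in that comparison. The 7 fibroblast markers summed to 124.1 to 15628.1 CPM in GEM-PNST, a range that takes in that of both other stages. The 8 epithelial and salivary gland markers reached 33081.8 CPM in GEM-PNST library 3 and 286.4 to 797.9 CPM in the other GEM-PNST libraries. They summed to 60.6 to 326.7 CPM in neurofibroma and 55.5 to 151.1 CPM in paraspinal tumors. Among them Cdh1 fell from a mean of 193.8 CPM in neurofibroma to 4.74 CPM in GEM-PNST. Krt8 rose from 0.0891 to 182.9 CPM, Krt18 from 0.253 to 161.6 CPM and Epcam from 1.03 to 30.8 CPM. The part of these cell types in the results below was not tested.

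Among the 10 genes, the cell death genes Bax and Bbc3 and the AKT inhibitor Phlda3 rose from neurofibroma to paraspinal tumors, while Mdm2, Ccng1 and Zmat3 fell. From neurofibroma to GEM-PNST, Trp53, Bax, Bbc3, Pmaip1 and Phlda3 rose, and Mdm2, Cdkn1a, Ccng1 and Zmat3 fell. Trp53 was the only one of the 10 to pass between paraspinal tumors and GEM-PNST, where it rose. Changes in either direction were common among all genes, so the counts below are to be read against that background. In bulk tumor RNA, fewer cells of a type and less RNA per cell cannot be told apart.

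Between paraspinal tumors and neurofibroma, 6 of the 10 genes passed the test (adjusted p under 0.05 by edgeR's quasi-likelihood test), against 59.6% of all 16589 genes. Of the 6, 3 rose (30.7% of all genes were called higher) and 3 fell (28.9% lower), and the same 6 did not overlap between the stages, 3 higher and 3 lower, against 36.4% of all genes (18.6% higher and 17.8% lower). Between GEM-PNST and neurofibroma 9 of the 10 passed, 5 higher and 4 lower, against 73.2% of all genes (35.4% higher and 37.9% lower). There 6 genes did not overlap between the stages, 3 in each direction, against 46.5% of all genes (21.2% higher and 25.2% lower). Between GEM-PNST and paraspinal tumors 1 of 10 passed, which was higher, against 10.7% of all genes (2.78% higher and 7.88% lower). There 2 genes did not overlap between the stages, both higher in GEM-PNST, against 27.2% of all genes (10.7% higher and 16.5% lower). The median log2 fold change of the 10 genes was 0.23, 0.56 and -0.01 in these 3 comparisons, and that of all genes 0.00, -0.12 and 0.03. The comparisons share libraries in pairs, so they are not independent of each other.

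**Figure D1:**
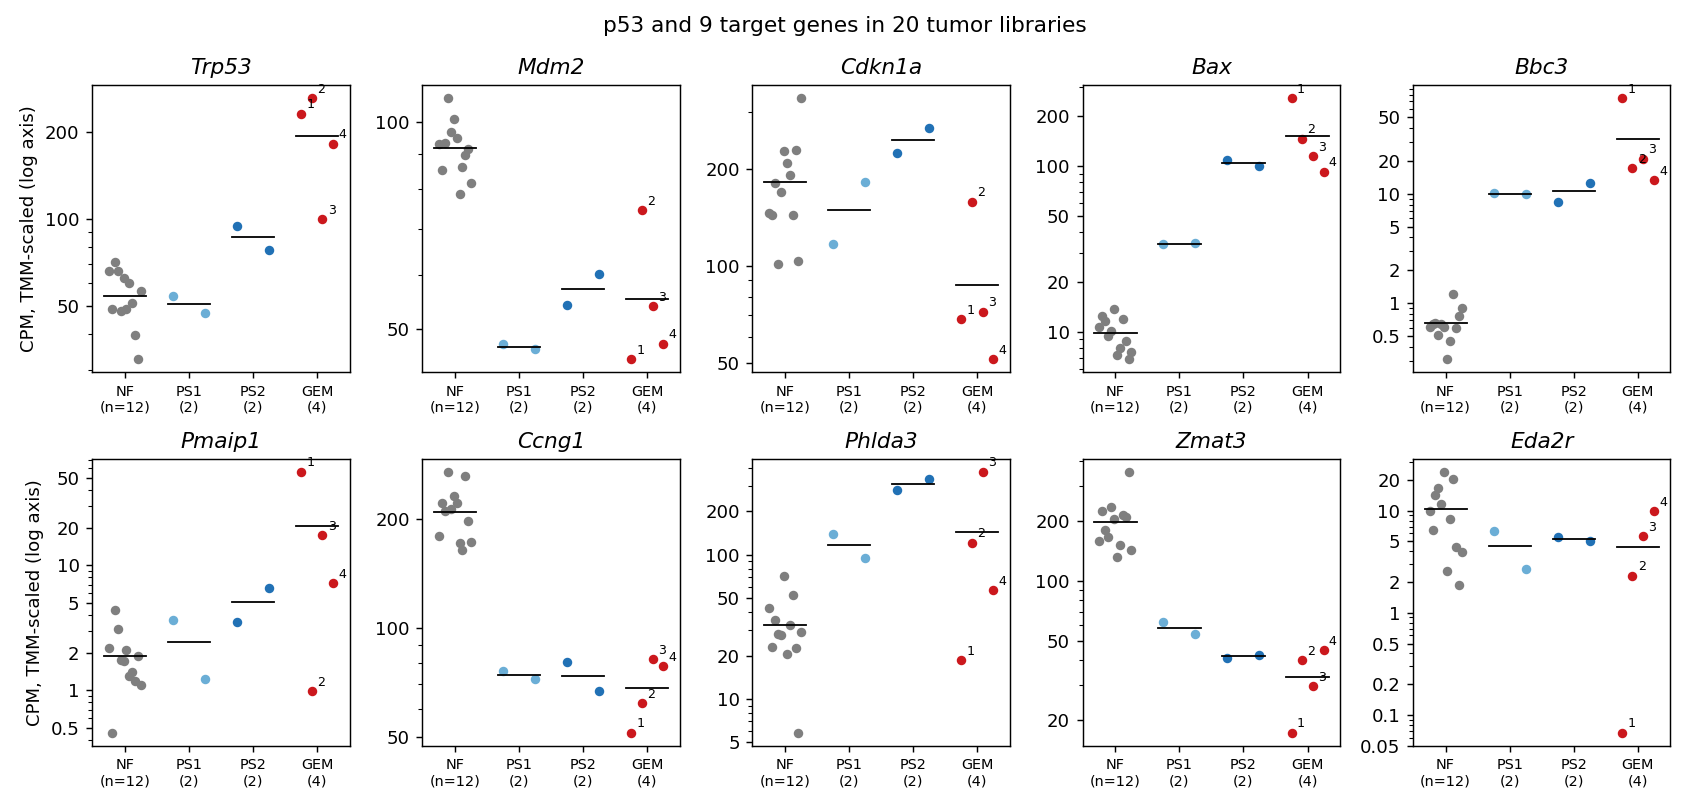
CPM of p53 and its 9 target genes on log axes, 1 point per library and a bar at the mean, for neurofibroma (NF, n = 12), paraspinal subgroups 1 and 2 (PS1 and PS2, n = 2 each) and GEM-PNST (GEM, n = 4, points numbered by library). Bax and Bbc3 lie above all neurofibroma libraries in every later tumor, and Mdm2, Ccng1 and Zmat3 below them.

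Trp53 itself was near its neurofibroma level in paraspinal tumors and higher in GEM-PNST. It had 32.7, 53.9 and 71.2 CPM (lowest, median and highest) in neurofibroma. It had 54.0 and 47.3 CPM in paraspinal subgroup 1, 94.9 and 78.1 in subgroup 2, and 232.3, 263.1, 99.7 and 182.6 in GEM-PNST libraries 1 to 4. All 4 GEM-PNST libraries were above every other library, subgroup 2 was above every neurofibroma, and subgroup 1 lay within the neurofibroma range. Trp53 rose 2.83-fold from paraspinal tumors to GEM-PNST (log2 fold change 1.50, SE 0.38, adjusted p = 0.0416) and 3.58-fold from neurofibroma to GEM-PNST (1.84, SE 0.21, adjusted p = 6.64e-07). The difference between paraspinal tumors and neurofibroma was 0.34 (SE 0.20, adjusted p = 0.152).

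The first of these calls is close to its threshold. Without GEM-PNST library 1, 2 or 4 the adjusted p was 0.0614, 0.0659 and 0.0738, and without paraspinal subgroup 1 library 1 or 2 or subgroup 2 library 1 or 2 it was 0.129, 0.125, 0.0533 and 0.0847, with log2 fold changes from 1.32 to 1.70 in these fits. Without GEM-PNST library 3, which held the salivary gland markers and the lowest Trp53 level of its group, Trp53 rose by 1.72 (adjusted p = 0.0183). Without both libraries whose codes share a stem across these stages it was at 1.22 (adjusted p = 0.171), an alternative chosen after seeing the data. The Trp53 locus spans 69580359 to 69591873 on chromosome 11 (GRCm38, + strand). The annotation also holds a processed pseudogene, Trp53-ps, and how the authors' counting divided reads between the copies is not given in the sources used here.

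Mdm2, the ligase that marks p53 for destruction and is itself a p53 target, was lower in all later tumors. It had 78.6, 92.3 and 108.4 CPM (lowest, median and highest) in neurofibroma, 47.6 and 46.8 in subgroup 1, 54.3 and 60.2 in subgroup 2, and 45.3, 74.5, 54.0 and 47.7 in GEM-PNST. Every paraspinal and GEM-PNST library was below every neurofibroma. Mdm2 fell 1.76-fold from neurofibroma to paraspinal tumors (log2 fold change -0.81, SE 0.11, adjusted p = 8.43e-06) and 1.65-fold to GEM-PNST (-0.73, SE 0.14, adjusted p = 0.000167). It differed by 0.09 between GEM-PNST and paraspinal tumors (SE 0.24, adjusted p = 0.841).

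Within a library, the ratio of Trp53 to Mdm2 CPM put the stages in order without overlap. It was 0.358, 0.603 and 0.762 in neurofibroma (lowest, median and highest), 1.01 to 1.14 in subgroup 1, 1.30 to 1.75 in subgroup 2 and 1.84 to 5.12 in GEM-PNST. The ratio is free of the scaling between libraries, though not of gene length or base composition, and it was examined because both genes had been seen to differ.

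**Figure D2:**
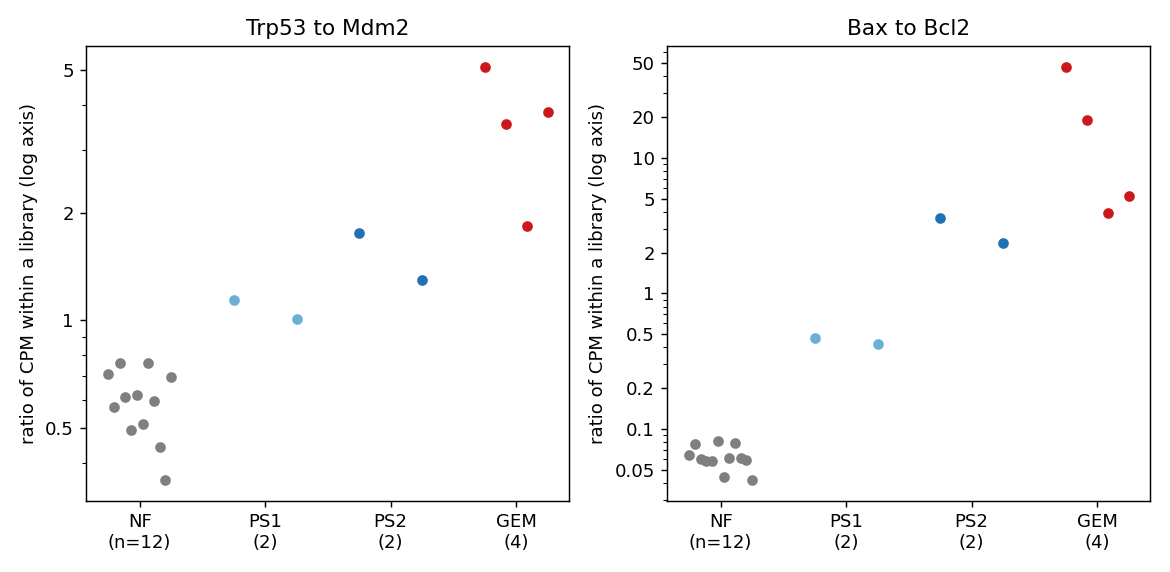
Ratio of Trp53 to Mdm2 CPM (left) and of Bax to Bcl2 CPM (right) within each library, on log axes, 1 point per library, in neurofibroma (NF), paraspinal subgroups 1 and 2 (PS1, PS2) and GEM-PNST (GEM). Every neurofibroma lies below 1 in both panels, and the highest GEM-PNST values are 5.12 and 47.1.

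Cdkn1a encodes p21, the cyclin-dependent kinase inhibitor through which p53 halts cells before S phase. In neurofibroma it had 101.2, 174.6 and 331.1 CPM (lowest, median and highest). It had 116.5 and 181.4 CPM in subgroup 1, 223.2 and 267.8 in subgroup 2, and 68.2, 157.6, 71.9 and 51.3 in GEM-PNST libraries 1 to 4. GEM-PNST libraries 1, 3 and 4 were below every other library, while GEM-PNST library 2 lay within the neurofibroma range. Cdkn1a fell 2.07-fold from neurofibroma to GEM-PNST (log2 fold change -1.05, SE 0.33, adjusted p = 0.00829).

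Cdkn1a differed between GEM-PNST and paraspinal tumors by -1.18 (SE 0.42, adjusted p = 0.0972), a difference that passed with DESeq2 (adjusted p = 0.018), with limma-voom (0.0297), with all 20 libraries in 1 edgeR fit (0.0193) and without GEM-PNST library 2 (-1.63, adjusted p = 0.035). DESeq2, limma-voom and the single fit also called more of all 16589 genes there, with 4711, 2862 and 6646 against 1769 as reported. Against neurofibroma the paraspinal difference of Cdkn1a was 0.12 (SE 0.27, adjusted p = 0.717). Mean Trp53 RNA was highest, and mean Cdkn1a RNA lowest, in GEM-PNST, 194.4 ± 71.3 against 87.3 ± 47.7 CPM (mean ± SD, n = 4).

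Ccng1, which encodes the phosphatase-binding cyclin G1, is another early p53 target, and it was uniformly lower in the later tumors. It had 164.1, 211 and 269 CPM (lowest, median and highest) in neurofibroma, 76.3 and 72.4 in subgroup 1, 80.7 and 67.2 in subgroup 2, and 51.5, 62.0, 82.0 and 78.5 in GEM-PNST. The highest of these 8 later libraries was below the lowest neurofibroma. Ccng1 fell 2.82-fold from neurofibroma to paraspinal tumors (log2 fold change -1.50, SE 0.16, adjusted p = 3.54e-07) and 3.05-fold to GEM-PNST (-1.61, SE 0.18, adjusted p = 6.03e-07), and the later stages differed by -0.11 (SE 0.23, adjusted p = 0.765).

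The genes of mitochondrial cell death went the other way. Bax, whose protein opens the outer mitochondrial membrane, had 6.86, 9.77 and 13.8 CPM (lowest, median and highest) in neurofibroma, 33.8 and 34.5 in subgroup 1, 109.6 and 100.3 in subgroup 2, and 258.3, 146.7, 115.1 and 92.9 in GEM-PNST. Neurofibroma, subgroup 1 and the remaining libraries formed 3 steps without overlap, and subgroup 2 lay within the GEM-PNST range. Bax rose 7.02-fold in paraspinal tumors (log2 fold change 2.81, SE 0.26, adjusted p = 8.3e-08) and 15.5-fold in GEM-PNST (3.95, SE 0.22, adjusted p = 2.36e-10) over neurofibroma. GEM-PNST differed from paraspinal tumors by 1.14 (SE 0.51, adjusted p = 0.157), which passed when all 20 libraries shared 1 fit (adjusted p = 0.0212). That fit called 6646 of all 16589 genes in this comparison, against 1769 as reported.

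Set against Bcl2, which restrains Bax, the ratio of Bax to Bcl2 CPM was 0.0421, 0.0605 and 0.0815 in neurofibroma (lowest, median and highest), 0.426 to 0.469 in subgroup 1, 2.37 to 3.59 in subgroup 2 and 3.9 to 47.1 in GEM-PNST. Bcl2 itself fell 2.83-fold from neurofibroma to paraspinal tumors (log2 fold change -1.50, SE 0.22, adjusted p = 1.53e-05) and 10.6-fold to GEM-PNST (-3.40, SE 0.37, adjusted p = 4.22e-07). Numerator and denominator therefore both moved. Other family members that protect from death did not all fall with Bcl2, and the ratio leaves them out. Bcl2l1 rose over neurofibroma by 1.27 in paraspinal tumors and 1.77 in GEM-PNST (edgeR adjusted p = 0.00219 and 0.000414). Mcl1 was at -0.12 (adjusted p = 0.758) and 0.69 (adjusted p = 0.0408), and Bcl2l2 at -0.01 (adjusted p = 0.954) and -1.38 (adjusted p = 3.64e-05).

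Bbc3 encodes PUMA, a BH3-only protein that promotes the activation of Bax. It was low in neurofibroma, with 0.311, 0.632 and 1.23 CPM (lowest, median and highest) from 4 to 20 counts a library. It had 10.2 and 9.89 CPM in subgroup 1, 8.37 and 12.7 in subgroup 2, and 75.1, 17.2, 21 and 13.4 in GEM-PNST. All 8 later libraries were above every neurofibroma, and all GEM-PNST libraries were above every paraspinal one. Bbc3 rose 15.3-fold in paraspinal tumors (log2 fold change 3.93, SE 0.24, adjusted p = 9.66e-10) and 47.0-fold in GEM-PNST (5.55, SE 0.37, adjusted p = 1.46e-09) over neurofibroma, the latter by 4.67 without GEM-PNST library 1. The difference between the later stages was 1.62 (SE 0.57, adjusted p = 0.0914), which passed with DESeq2 (adjusted p = 0.0366) and with all 20 libraries in 1 fit (0.00786). Those fits called 4711 and 6646 of all 16589 genes in this comparison, against 1769 as reported.

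Pmaip1 encodes NOXA, another BH3-only protein, and its level differed widely between GEM-PNST libraries. It had 0.457, 1.72 and 4.39 CPM (lowest, median and highest) in neurofibroma, 3.65 and 1.24 in subgroup 1, 3.5 and 6.62 in subgroup 2, and 56.1, 0.985, 17.5 and 7.2 in GEM-PNST libraries 1 to 4. GEM-PNST libraries 1, 3 and 4 were above every other library, while library 2 was within the neurofibroma range. Pmaip1 rose 10.8-fold from neurofibroma to GEM-PNST (log2 fold change 3.44, SE 0.59, adjusted p = 6.24e-05), by 2.18 without GEM-PNST library 1 (adjusted p = 0.00215), and differed by 1.11 with libraries 2 and 4 alone (adjusted p = 0.12). Paraspinal tumors differed from neurofibroma by 1.00 (SE 0.43, adjusted p = 0.0553), which passed without paraspinal subgroup 1 library 2 (1.29, adjusted p = 0.0163) or without neurofibroma library 4 (1.08, adjusted p = 0.0405). GEM-PNST differed from paraspinal tumors by 2.44 (SE 1.05, adjusted p = 0.142).

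Phlda3 encodes a small protein that keeps AKT kinase from the membrane. It had 5.83, 28.7 and 71.7 CPM (lowest, median and highest) in neurofibroma, 140.2 and 94.5 in subgroup 1, 280.2 and 335.8 in subgroup 2, and 18.5, 121.4, 376.3 and 56.5 in GEM-PNST libraries 1 to 4. All paraspinal libraries were above every neurofibroma, whereas GEM-PNST libraries spanned both ranges. Phlda3 rose 6.51-fold from neurofibroma to paraspinal tumors (log2 fold change 2.70, SE 0.39, adjusted p = 1.48e-05). It rose 4.38-fold to GEM-PNST (2.13, SE 0.53, adjusted p = 0.00173), a call that was lost without GEM-PNST library 3, the one with the salivary gland markers (1.00, adjusted p = 0.0847). GEM-PNST differed from paraspinal tumors by -0.57 (SE 0.83, adjusted p = 0.66). GEM-PNST library 3 also had the highest sums of Schwann cell lineage (1015.7 CPM) and fibroblast markers (15628.1 CPM) of its group. The same held for T and B cell (123.5 CPM) and skeletal muscle markers (930.8 CPM). The part of any of these cell types in the Phlda3 level was not tested.

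Zmat3, a zinc finger protein that binds RNA and acts on splicing, had a lower mean in each later group. It had 131.4, 192 and 353.5 CPM (lowest, median and highest) in neurofibroma, 61.9 and 53.9 in subgroup 1, 41.0 and 42.7 in subgroup 2, and 17.3, 40.0, 29.7 and 44.9 in GEM-PNST. All later libraries were below every neurofibroma, and subgroup 1 was above both subgroup 2 and GEM-PNST. Zmat3 fell 3.96-fold to paraspinal tumors (log2 fold change -1.99, SE 0.25, adjusted p = 2.66e-06) and 5.99-fold to GEM-PNST (-2.58, SE 0.30, adjusted p = 9.87e-07). The later stages differed by -0.60 (SE 0.34, adjusted p = 0.242).

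Eda2r, a receptor of the TNF receptor family that binds ectodysplasin A2, passed in no stage comparison. It had 1.89, 9.14 and 24.1 CPM (lowest, median and highest) in neurofibroma, 6.39 and 2.71 in subgroup 1, 5.55 and 5.05 in subgroup 2, and 0.0669 (1 count), 2.3, 5.63 and 9.84 in GEM-PNST. All groups overlapped. Its log2 fold changes were -1.08 (SE 0.58, adjusted p = 0.117) for paraspinal tumors and -1.22 (SE 0.80, adjusted p = 0.179) for GEM-PNST against neurofibroma, and -0.14 (SE 1.00, adjusted p = 0.945) between the later stages. Against neurofibroma libraries 1 to 6 alone the paraspinal difference was -1.49 (adjusted p = 0.00597), and with DESeq2 on all libraries it was -1.18 (adjusted p = 0.0465).

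**Figure D3:**
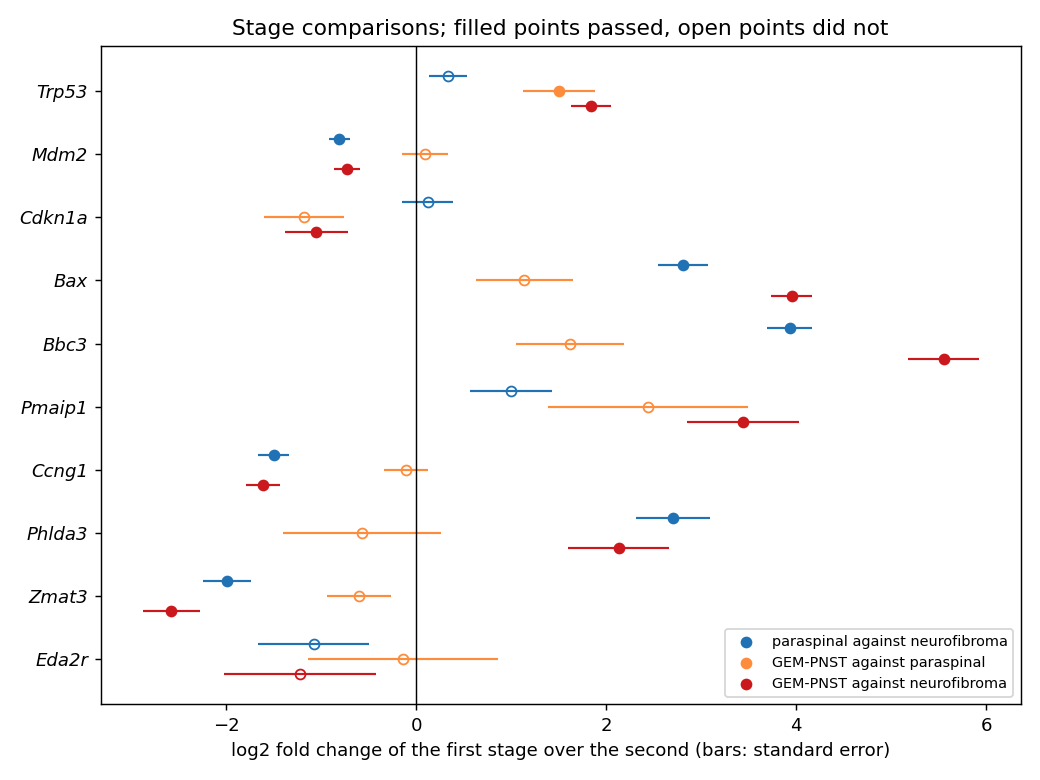
Log2 fold changes of the 10 genes in the 3 stage comparisons, with bars of 1 standard error; filled points passed an adjusted p of 0.05 by edgeR and open points did not. Bax and Bbc3 stand at 2.81 to 5.55 against neurofibroma, Mdm2, Ccng1 and Zmat3 at -0.73 to -2.58, and between GEM-PNST and paraspinal tumors Trp53 is the single filled point.

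The 3 genes that rose and the 3 that fell in paraspinal tumors against neurofibroma differed in base composition. Over the annotated exons, Bbc3, Phlda3 and Bax have 67.1%, 60.2% and 59.0% GC, at the 99.6th, 95.9th and 93.6th percentiles of all genes. Ccng1, Mdm2 and Zmat3 have 39.5%, 47.2% and 47.8%, at the 6.9th, 39.4th and 43.0th percentiles. The genes called in GEM-PNST but not in paraspinal tumors did not divide in this way, since Pmaip1 rose at 41.6% GC (13.4th percentile) and Trp53 at 54.0%, while Cdkn1a fell at 53.7%. Zmat3 has 11.4 kb of annotated exon, against 1.56 kb for Phlda3 and 1.58 kb for Bax. A trend over exon length and GC content was therefore removed from each library and the tests were repeated, an analysis chosen after seeing the data.

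After its removal the changes against neurofibroma were mostly smaller. In paraspinal tumors Bax rose by 1.28 (log2, adjusted p = 3.43e-05), Bbc3 by 1.65 (9.04e-06) and Phlda3 by 1.07 (0.0214), and Mdm2 fell by 0.38 (0.012), Ccng1 by 0.37 (0.0287) and Zmat3 by 1.17 (0.000245). Pmaip1 rose by 1.80 (adjusted p = 0.00102) and so passed. Trp53 and Cdkn1a turned to -0.32 and -0.52 (adjusted p = 0.176 and 0.123). In all 7 of the 10 genes then passed, 4 higher and 3 lower, against 47.1% of all genes.

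For GEM-PNST against neurofibroma, 7 genes passed after the trend was removed, against 68.4% of all genes. Trp53 rose by 1.15, Bax by 2.24, Bbc3 by 4.14 and Pmaip1 by 3.78, and Cdkn1a fell by 1.81, Ccng1 by 0.80 and Zmat3 by 1.17, with Zmat3 closest to the threshold (adjusted p = 0.000462). Mdm2 was at -0.17 (adjusted p = 0.27) and Phlda3 at 0.30 (adjusted p = 0.629), so both calls were lost. Between GEM-PNST and paraspinal tumors, which share a run, Trp53 rose by 1.47 (adjusted p = 0.0344) and remained the single gene of the 10 to pass.

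**Figure D4:**
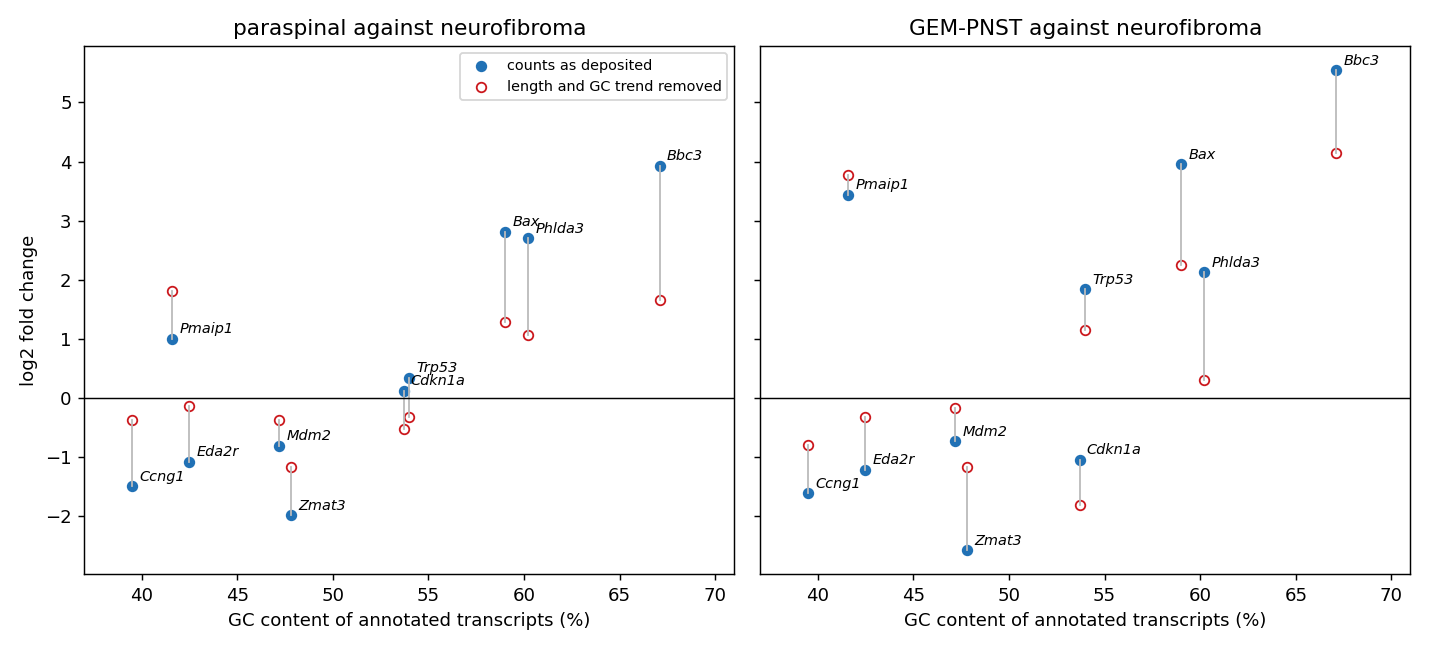
Log2 fold change of each of the 10 genes against the GC content of its annotated transcripts (%), for paraspinal tumors (left) and GEM-PNST (right) against neurofibroma, with the deposited counts (filled) and after removal of the trend over length and GC content (open). Bbc3, at 67.1% GC, moves from 3.93 to 1.65 on the left and from 5.55 to 4.14 on the right, and Phlda3 moves from 2.13 to 0.30 on the right.

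Levels of different genes were compared per kb of annotated exon. In neurofibroma Ccng1 (59.5 CPM per kb) and Cdkn1a (51.0) led, and Bbc3 (0.313) was last. In paraspinal tumors Phlda3 (136.4), Cdkn1a (55.5) and Bax (44.1) led, and in GEM-PNST Bax (97.2), Phlda3 (91.8) and Trp53 (48.1). Ccng1 and Cdkn1a headed this order in neurofibroma and Bax and Phlda3 in GEM-PNST, on a scale that is subject to the same dependence on base composition. Without GEM-PNST library 3, the one with the salivary gland markers, Phlda3 was at 42 CPM per kb in GEM-PNST, below Bax (105.3) and Trp53 (55.9).

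The labels call the paraspinal subgroups sub-clusters, so they may rest on the same expression data, and they are described without a test. In 6 of the 10 genes the subgroups, of 2 libraries each, did not overlap, 5 higher and 1 lower in subgroup 2, against 69.4% of all genes (35.2% higher and 34.3% lower). Trp53, Mdm2, Cdkn1a, Bax and Phlda3 were higher in subgroup 2, with means of 86.5, 57.2, 245.5, 104.9 and 308 CPM against 50.7, 47.2, 148.9, 34.2 and 117.4 CPM, and Zmat3 was lower, with 41.9 against 57.9 CPM. Bbc3, at 10.5 and 10 CPM, and Ccng1, at 73.9 and 74.3 CPM, were at nearly the same mean. In subgroup 2 the macrophage markers summed to 1723.7 and 2034.9 CPM and in subgroup 1 to 561.9 and 1109.9 CPM, and their part in these differences was not tested. When each subgroup was set alone against neurofibroma, the log2 fold change of Trp53 was -0.10 for subgroup 1 and 0.67 for subgroup 2, and that of Bax 1.79 and 3.40.

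Among the 12 neurofibromas, where Trp53 varied 32.7 to 71.2 CPM, its log2 CPM was related to that of each of the 9 targets, with permutation p-values (two-sided, 100000 permutations) adjusted over the 9 relations. Phlda3 was higher where Trp53 was higher (Pearson r = 0.76, permutation p = 0.00456, adjusted 0.041; Spearman rho = 0.73, permutation p = 0.0105, adjusted 0.0944). Without libraries 11 and 10, the farthest from the median of Trp53, r was 0.42, so the relation rests on those libraries, and it was 0.49 and 0.82 within the 2 runs. With RLE factors in place of TMM the call was lost (r = 0.72, adjusted permutation p = 0.0511). Eda2r (r = 0.69, permutation p = 0.0118, adjusted 0.0518; rho = 0.63, permutation p = 0.0334, adjusted 0.15) and Zmat3 (r = -0.67, permutation p = 0.0173, adjusted 0.0518; rho = -0.49, permutation p = 0.11, adjusted 0.28) did not pass after adjustment. Their r was 0.43 and -0.28 without the same libraries, and 0.54 and 0.56, and -0.87 and -0.84, within the runs.

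The other 6 targets had r from -0.13 (Bbc3) to 0.47 (Bax), with adjusted permutation p of 0.278 or more. Library 11, which had the lowest Trp53 and Phlda3 and the highest Zmat3 level of the 12, also had the highest sum of sensory neuron markers (11742.4 CPM), whose part in these relations was not tested. The genes with the pattern most like that of Trp53 over the 12 libraries, of 10558 compared, were Tinf2 (r = 0.97), Scamp2, P4hb and Bcl10 (0.96 each). For Mdm2 they were Copb1 (0.87), Copb2 (0.85), Flt3 (0.83) and Actr3 (0.80), and for Cdkn1a Tmco1, Tbl2 and Dnajc4 (0.91 each) and Slc25a23 (0.89). No target of p53 under study was among these genes. Lists this short, out of 10558 genes, would rarely hold a target, so they cannot show whether the targets follow Trp53.

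Genes that act upstream of p53 or modify it were mostly lower in the later tumors. Of 17 tested, 2 rose and 10 fell from neurofibroma to paraspinal tumors (median log2 fold change -1.51, all genes 0.00), and 4 rose and 10 fell to GEM-PNST (median -1.23, all genes -0.12). Passing genes were 70.6% and 82.4% of the list, against 59.6% and 73.2% of all genes (28.9% and 37.9% lower). Mdm4, which binds p53 and blocks its activity, fell 5.21-fold to paraspinal tumors (log2 fold change -2.38, SE 0.46, adjusted p = 0.000281) and 14.5-fold to GEM-PNST (-3.86, SE 0.24, adjusted p = 8.53e-10). The kinase gene Atm, the acetyltransferase gene Crebbp and the kinase gene Hipk2 fell by 2.22, 3.01 and 2.98 to paraspinal tumors, and Crebbp, Hipk2 and the acetyltransferase gene Ep300 fell by 4.04, 3.14 and 2.57 to GEM-PNST.

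Cdkn2a, the gene of the Ink4a/Arf locus, had 0.483 ± 0.401 CPM (SD, n = 12) in neurofibroma, 20.1 ± 12.4 (n = 4) in paraspinal tumors and 5.7 ± 3.86 (n = 4) in GEM-PNST. It rose in both later stages over neurofibroma (log2 fold change 5.33, SE 0.49, adjusted p = 8.63e-08, and 3.51, SE 0.59, adjusted p = 5.46e-05), although the later mice carry 1 disrupted copy. The count does not tell the intact from the disrupted copy, nor the Ink4a from the Arf transcripts of the locus. Every paraspinal library was above every neurofibroma, while GEM-PNST overlapped neurofibroma, and both changes start from the low neurofibroma mean of 0.483 CPM. Its difference between GEM-PNST and paraspinal tumors was -1.82 (SE 0.79, adjusted p = 0.147). Of the p53 relatives, Trp63 fell by 1.51 to paraspinal tumors (adjusted p = 0.0449) and by 2.45 to GEM-PNST (adjusted p = 0.0122) at means of 1.62 CPM or less, and Trp73 was too low to be tested. Of the 17, 0 passed between the later stages by edgeR (4 at an unadjusted p under 0.05) and 1, lower, by DESeq2, at a median of -0.07. Over all genes 10.7% passed there by edgeR, and 4711 of 16589 by DESeq2.

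With the trend over length and GC content removed, 5 of the 17 rose and 5 fell in paraspinal tumors, and 8 rose and 5 fell in GEM-PNST (medians -0.14 and 0.22), so the excess of lower genes was not seen. Over all genes 47.1% and 68.4% then passed. Mdm4 fell by 1.27 and 1.90, Atm by 1.09 in paraspinal tumors, Ep300 by 1.01 in GEM-PNST, Crebbp by 2.72 and 2.88, and Hipk2 by 3.33 and 2.92 in that analysis. Cdkn2a rose by 3.89 and 1.90. The Trp63 calls were lost (adjusted p = 0.272 and 0.141).

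Other p53 targets of growth arrest, stress and antioxidant defence were more often higher than lower. Of 16 tested, 9 rose and 0 fell in paraspinal tumors (median 1.13), and 11 rose and 1 fell in GEM-PNST (median 2.57) against neurofibroma. These were 56.2% and 75% of the list, against 59.6% and 73.2% of all genes, so the number called was near the background. By direction, 30.7% and 35.4% of all genes were higher and 28.9% and 37.9% lower, with medians of 0.00 and -0.12. Ddit4, an inhibitor of mTORC1 signaling, rose 9.43-fold in paraspinal tumors (log2 fold change 3.24, SE 0.53, adjusted p = 4.95e-05). The stress kinase gene Plk3 and the glutathione peroxidase gene Gpx1 rose by 2.72 and 2.56 in GEM-PNST, and Sesn1, a brake on mTORC1, fell by 1.57. Plk3 was also the single gene of the list to pass between GEM-PNST and paraspinal tumors (1.87, SE 0.41, adjusted p = 0.0273). There 10.7% of all genes passed. With the trend removed, 4 rose and 2 fell in paraspinal tumors and 10 rose and 1 fell in GEM-PNST. Of all genes 47.1% and 68.4% then passed. Ddit4 rose by 1.98 in paraspinal tumors, and Plk3 by 1.18 and Gpx1 by 1.02 in GEM-PNST. In paraspinal tumors Plk3 turned from a rise of 0.84 to a fall of 0.59.

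Other p53 targets of cell death gave 5 higher and 2 lower of 14 tested in paraspinal tumors (median 0.43) and 8 higher and 2 lower in GEM-PNST (median 0.80) against neurofibroma. That was 50% and 71.4% of the list, against 59.6% and 73.2% of all genes (30.7% and 35.4% higher). The death receptor gene Tnfrsf10b fell 4.90-fold and 3.12-fold (log2 fold change -2.29, SE 0.37, adjusted p = 4.54e-05, and -1.64, SE 0.21, adjusted p = 3.01e-06), and fell by 2.08 and 1.31 with the trend removed. Siva1, which promotes cell death, rose by 2.47 in GEM-PNST (1.27 with the trend removed). Apaf1, the scaffold of the apoptosome, rose 2.93-fold from paraspinal tumors to GEM-PNST (1.55, SE 0.34, adjusted p = 0.0288), as the single gene of the list to pass there. In that comparison 10.7% of all genes passed. With the trend removed the list gave 3 higher and 3 lower, and 6 higher and 3 lower, against neurofibroma. The shares of all genes that passed were then 47.1% and 68.4%.

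Other p53 targets of DNA repair and of nucleotide or iron metabolism were mixed, with 5 higher and 2 lower of 12 in paraspinal tumors (median 0.38) and 7 higher and 4 lower in GEM-PNST (median 0.66) against neurofibroma. The list thus had 58.3% and 91.7% called, against 59.6% and 73.2% of all genes (30.7% and 35.4% higher). After removal of the trend, 4 rose and 1 fell in paraspinal tumors, and 5 rose and 3 fell in GEM-PNST. Among all genes 47.1% and 68.4% then passed. Rrm2b, the p53-induced subunit of ribonucleotide reductase, fell by 1.46 in paraspinal tumors (adjusted p = 0.000327) and 3.34 in GEM-PNST (adjusted p = 3.31e-10), and it fell 3.71-fold between them (-1.89, SE 0.49, adjusted p = 0.045). With the trend removed these values were -0.28 (adjusted p = 0.244), -1.75 and -1.46 (adjusted p = 0.0427). Pcna, the replication clamp, rose 2.95-fold in GEM-PNST over neurofibroma (1.56, SE 0.23, adjusted p = 1.32e-05).

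In the BCL2 family and the caspase cascade, 6 of 17 genes rose and 5 fell in paraspinal tumors (median 0.45), and 10 rose and 5 fell in GEM-PNST (median 0.71) against neurofibroma. Called were 64.7% and 88.2% of the list, against 59.6% and 73.2% of all genes (30.7% and 35.4% higher). Against 2.78% of all genes higher and 7.88% lower, 3 genes of the list rose and 1 fell between GEM-PNST and paraspinal tumors. Among them the BH3-only genes Bcl2l11 (BIM) and Bmf rose by 1.77 and 1.41 on the log2 scale (adjusted p = 0.0168 and 0.0246), and Bcl2l2, which protects from death, fell by 1.37 (adjusted p = 0.0256). These 3 genes passed in the same direction with the trend removed. Against neurofibroma that removal left 2 higher and 3 lower in paraspinal tumors and 6 higher and 3 lower in GEM-PNST, and Bcl2 fell by 0.75 and 2.13. It left 47.1% and 68.4% of all genes called.

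Among the other CDK inhibitors and the RB family, 4 of 8 rose and 2 fell in paraspinal tumors (median 0.68), and 5 rose and 2 fell in GEM-PNST (median 0.85). This was 75% and 87.5% of the list, against 59.6% and 73.2% of all genes (30.7% and 35.4% higher). The fallers were the pocket protein genes Rb1 (-2.41 and -2.45, adjusted p = 3.84e-08 and 9.53e-06) and Rbl2 (-1.09 and -1.39, adjusted p = 6.57e-05 and 1.29e-07). With the trend removed, 1 rose and 2 fell, and 2 rose and 3 fell, and Rb1 fell by 1.41 and 1.42. Then 47.1% and 68.4% of all genes passed. Of the 8, 0 passed between the later stages by edgeR (1 at an unadjusted p under 0.05) and 0 by DESeq2, at a median of -0.04. There edgeR called 10.7% of all genes and DESeq2 4711 of 16589.

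Cell cycle genes that p21 acts to repress were higher in GEM-PNST. Of 15 tested, 14 rose and 0 fell against neurofibroma (median 3.42, all genes -0.12) and 5 rose and 0 fell against paraspinal tumors (median 2.50, all genes 0.03), where 11 of the 15 did not overlap between the stages and 14 passed by DESeq2. Of all genes 35.4% were called higher against neurofibroma and 2.78% against paraspinal tumors. Against paraspinal tumors 27.2% of all genes did not overlap (10.7% higher), and DESeq2 called 4711 of 16589, 1958 of them higher. Birc5 (survivin) rose 11.5-fold over neurofibroma (log2 fold change 3.52, SE 0.24, adjusted p = 2.17e-09), and the replication helicase gene Mcm5 rose 5.11-fold over paraspinal tumors (2.35, SE 0.56, adjusted p = 0.0358). In paraspinal tumors against neurofibroma 6 rose and 0 fell (median 0.91), 40% of the list against 59.6% of all genes (30.7% higher). With the trend removed, 14 rose in GEM-PNST against neurofibroma and 4 against paraspinal tumors, with medians of 3.63 and 2.51, where 68.4% and 13.4% of all genes passed.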

How the data were processed

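RNA-seq counts of 20 mouse tumor libraries were analysed. The values are whole-number raw counts for each gene, as deposited by the authors. The submitters' processing notes name TopHat, HISAT2, featureCounts and mm10 without versions or roles; strand setting and annotation are not given in the sources used here. Exons of Bax share 192 bases with Gm45808 and those of Cdkn1a 273 bases with the antisense AC167363.2, neither of which has a row in the count table. RNA was extracted with a column kit and libraries were made by Nextera tagmentation, per the labels' protocols. Each column was matched to its sample by the code in the labels.

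The 10 genes, the lists and the tests were chosen with earlier results of these data known. From each pathway list, up to 4 genes per comparison were named: those that passed with the largest change, no overlap between stages and a mean log2 CPM of at least 3, or the 2 most abundant where none passed; Cdkn2a, Mdm4, Trp63 and Trp73 were always eligible. Nearest patterns were the 4 genes with the highest Pearson r over the neurofibromas.

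Testing used edgeR 4.0.16 under R 4.3.3 (TMM factors over all libraries, filterByExpr, quasi-likelihood F tests on the 2 stages compared), adjusted by Benjamini-Hochberg over 16589 genes, with a threshold of 0.05. log2 CPM used a prior count of 2. The tests were tried on simulated data first. Within groups, 74 pairs of libraries were compared and no 2 were alike within sampling noise (lowest chi-square per degree of freedom 22.6). Alternatives were RLE factors, other filters (none, or 1 CPM in 4 libraries), DESeq2 1.42.0, limma-voom (limma 3.58.1), all 20 libraries in 1 fit, a 2-fold minimum, a replicate block, the genes Rn45s and Malat1 removed, subgroups or runs alone and libraries left out. Chosen after seeing the data were TMM factors from the compared stages alone, the omission of both libraries with a shared code stem, levels per kb without GEM-PNST library 3, and removal of a trend over exon length and GC content (natural splines with 5 degrees of freedom, 16410 genes, GENCODE vM21 exons of GRCm38).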

Additional observations from a re-analysis of the deposited data

Results flagged for a closer look

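Of 20 combinations of gene and stage that were screened (10 genes in the 4 paraspinal and the 4 GEM-PNST libraries), 1 had a library far from the rest of its group by Dixon's criterion, where chance flags about 5% of groups. Bbc3 had 75.1 CPM in GEM-PNST library 1, against 13.4 to 21 CPM in the other GEM-PNST libraries. The same library had the highest Bax (258.3 CPM) and Pmaip1 (56.1 CPM) levels and the lowest Phlda3 (18.5 CPM), Zmat3 (17.3 CPM) and Eda2r (0.0669 CPM) levels of its group, and the lowest sums of Schwann cell lineage markers (3.61 CPM) and fibroblast markers (124.1 CPM). Their part in the Bbc3 value was not tested.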

How the results depend on the processing

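The count of the 10 genes called was 4 to 8 for paraspinal tumors against neurofibroma (6 as reported) under every alternative run. For GEM-PNST against neurofibroma it was 7 to 9 (9 as reported), except 5 with the replicate block. For GEM-PNST against paraspinal tumors the 1 call became 3 with DESeq2, 2 with limma-voom and 5 with all 20 libraries in 1 fit, and 0 with no filter, the replicate block, a 2-fold minimum, or subgroup 1 or 2 alone; it ranged from 0 to 1 as single libraries were left out. The calls over all genes in that comparison ran from 92 (subgroup 2 alone) to 6646 (all 20 libraries in 1 fit) around 1769, with 4711 by DESeq2 (41.6% of them higher, against 26.1% as reported), 2862 by limma-voom and 765 with a 2-fold minimum. They were 549 to 1162 without any single paraspinal library and 816 without GEM-PNST library 4. A 2-fold minimum left 4372 of the 9882 calls between paraspinal tumors and neurofibroma. With the replicate block, calls over all genes fell to 2956 of 9882 and 7420 of 12150 against neurofibroma and to 953 of 1769 between the later stages. Same-numbered libraries deviated together with correlations of -0.29 to 0.22, and 3 of 12 pairs exceeded 0.1. Tumors of different stages from 1 animal need not deviate together, so these values cannot show whether the block is a pairing. The labels give the numbers without saying what they share.

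Among the 10 genes, the stage differences that turned direction were all ones that had not passed. For paraspinal tumors against neurofibroma, Cdkn1a (0.12) was -0.07 with RLE factors, -0.06 with limma-voom, -0.28 with subgroup 1 alone, -0.03 with neurofibroma libraries 7 to 12 alone and -0.52 after removal of the GC and length trend. It was -0.06 to 0.31 as single libraries were left out. Trp53 (0.34) was -0.10 with subgroup 1 alone and -0.32 after that removal. Between GEM-PNST and paraspinal tumors, Mdm2 (0.09) was -0.05 with subgroup 2 alone, -0.01 when Rn45s and Malat1 were taken out and -0.09 to 0.17 with single libraries left out, and Ccng1 (-0.11) was 0.00 with limma-voom and -0.21 to 0.00 with single libraries left out. Phlda3 (-0.57) was 0.29 with subgroup 1 alone, and Eda2r (-0.14) was 0.30 with GEM-PNST libraries 2 and 4 alone and -0.88 to 0.26 with single libraries left out. The cause was not tested. With RLE factors 0 of the 9 relations of Trp53 among neurofibromas passed, and r with Mdm2 was -0.02. RLE factors moved the median of all genes to -0.18 and -0.29 against neurofibroma. Without both libraries whose codes share a stem, chosen after seeing the data, Mdm2 was -0.13 and Eda2r 0.22 between the later stages, and the single call was Cdkn1a (-1.81, adjusted p = 0.0466). Low counts limit Bbc3 in neurofibroma and Eda2r in GEM-PNST library 1.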
